A study of Mus musculus with 4 samples.

Results

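TRBC1, PTPN7, PDE4B and HCLS1 are leukocyte-associated genes, though many other cells also make PDE4B. These genes were examined here in human breast cancer xenografts. The members were all probe sets (groups of short probes read together as 1 value) whose platform annotation gave exactly 1 gene symbol equal to one of these names. 4 probe sets, 1 per gene, met this rule, among 137 in the deposited table. The genes were chosen by their values in this same contrast, the intensity in the control and the DHHC3 shRNA tumors, so the differences given here describe the members and are not tested.

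RNA came from 4 tumor samples. Per the labels, the tumors grew orthotopically (in the mammary fat pad) for 35 days, in female nude hosts of genotype Crl:NU(NCr)-Foxn1nu. They arose from MDA-MB-231 cells, an established human triple-negative breast cancer line. Cells in 2 samples carried a control shRNA, a short hairpin RNA that serves as the comparison. Cells in the other 2 carried a shRNA against DHHC3, the enzyme encoded by ZDHHC3 that attaches palmitate to proteins. In this design the question is which transcripts differ in tumors whose cancer cells have less DHHC3. The shRNA acts in the injected cells, and the stroma, vessels and remaining leukocytes come from the mouse. Nude mice lack a functional thymus because of their Foxn1 mutation and have few mature T cells, while they keep B cells, NK cells and myeloid cells. Nothing in the labels ties the samples to separate tumors or to single mice. The spread given here is thus that between samples and may be partly technical. A piece of tumor is a mixture, and fewer cells of a type cannot be told apart from less RNA per cell.

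T cells recognise antigen through a receptor of an alpha and a beta chain. The signal is passed on by kinases, shaped by phosphatases and by the second messenger cyclic AMP, and carried to the actin cortex beneath the membrane. The members stand at different points of that route. TRBC1 encodes a constant segment of the beta chain. PTPN7 is a tyrosine phosphatase of hematopoietic cells that acts on MAP kinases. PDE4B breaks down cyclic AMP and is abundant in leukocytes, though many other cells also make it. HCLS1 is the hematopoietic relative of cortactin, binds actin filaments and is phosphorylated after antigen receptor signalling.

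The table is a selected list and limits what can be said. In all 137 probe sets the groups did not overlap, with a gap of at least 1.56-fold between the nearest arrays. It held 101 probe sets that were higher and 36 that were lower in the DHHC3 shRNA tumors. The median over the table was 312 to 351 arbitrary units in control and 458 to 484 in DHHC3 shRNA arrays. ZDHHC3, the targeted gene, gave 971 and 854 units with control shRNA against 240 and 264 units with DHHC3 shRNA, in the direction of the labels on every array.

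All 4 members were lower in the DHHC3 shRNA tumors, and in each of them both DHHC3 shRNA arrays lay below both control arrays. Of the 137 probe sets, 26.3% were lower with groups that did not overlap. With limma's moderated test on the whole table, 100% of probe sets had a Benjamini-Hochberg adjusted p under 0.05, so that call sets no member apart. Since the members were picked for this difference, nothing is read from their count. The median fold of the members was 1.88, against 1.83 for the 36 lower probe sets. Among those 36, 11 differed by 2-fold or more, and 1 of the members, TRBC1, was among them. The folds are ratios of geometric means, control over DHHC3 shRNA.

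**Figure D1:**
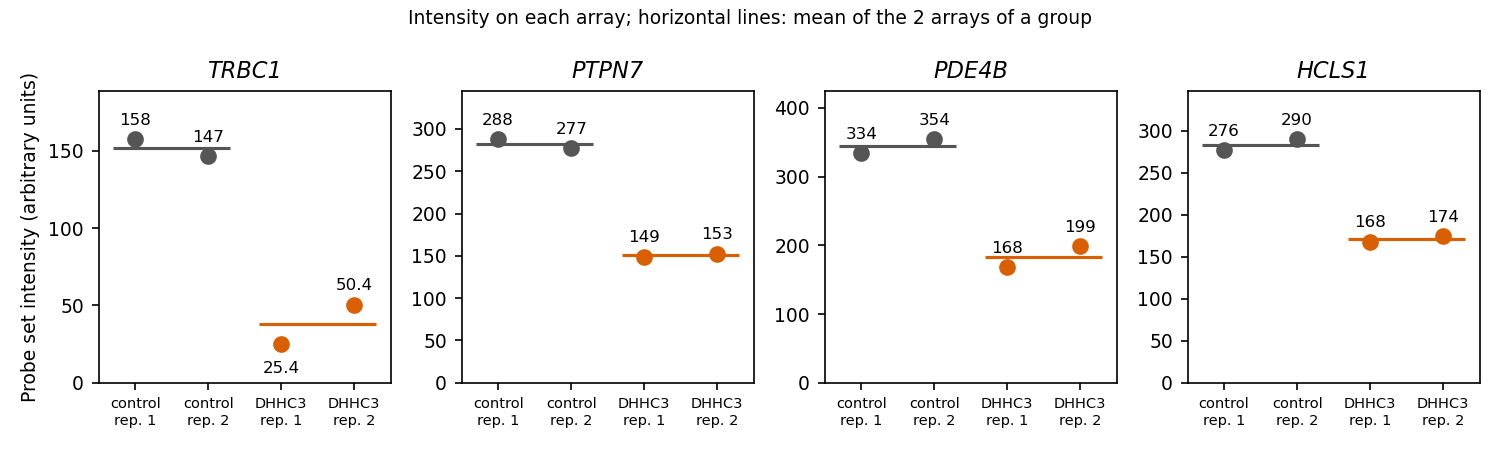
Probe set intensity in arbitrary units on each of the 4 arrays for TRBC1, PTPN7, PDE4B and HCLS1, with a horizontal line at the mean of the 2 arrays of each group. In every panel both DHHC3 shRNA arrays lie below both control arrays, and only in TRBC1 do the DHHC3 shRNA arrays stand far apart for their level, at 25.4 and 50.4 units.

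TRBC1, the receptor gene, showed the largest difference. Its probe set, 211796_s_at, read 158 and 147 units in control tumors, against 25.4 and 50.4 units in DHHC3 shRNA tumors. The control arrays were close to each other, while the first DHHC3 shRNA array read far below the other. The means were 152 ± 7.76 units and 37.9 ± 17.7 units (SD, n = 2 each). TRBC1 was thus 4.25-fold lower, with a log2 fold change of -2.09 ± 0.32 (limma SE), which leaves 23.5% of the control level. Depending on which control array was set against which DHHC3 shRNA array, the ratio ran from 2.91 to 6.20. Of the 36 lower probe sets it ranked first by size of the difference, ahead of ZDHHC3 at 3.62-fold. That order turned in some settings: without the first DHHC3 shRNA array TRBC1 was 3.01-fold and ZDHHC3 3.45-fold lower, and with a pseudocount of 16 units 3.20-fold and 3.46-fold lower. These 2 log2 fold changes lay 0.23 apart, less than the SE of TRBC1.

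The precision of TRBC1 was poor on one side only. Its control arrays differed by 0.10 on the log2 scale, below the median of 0.15 over the table. Its DHHC3 shRNA arrays differed by 0.99, or 1.99-fold, the largest such difference of the 137 probe sets, where the median was 0.09. The reading of 25.4 units was also the lowest value on its array. No detection call or background value comes with the table, so how much of so dim a reading was signal was not analysed here. The suffix _s_at marks probes shared by several transcripts. The neighbouring gene TRBC2 encodes a nearly identical constant segment, so the signal may come from either gene. The part played by such probes in the difference was not tested.

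**Figure D2:**
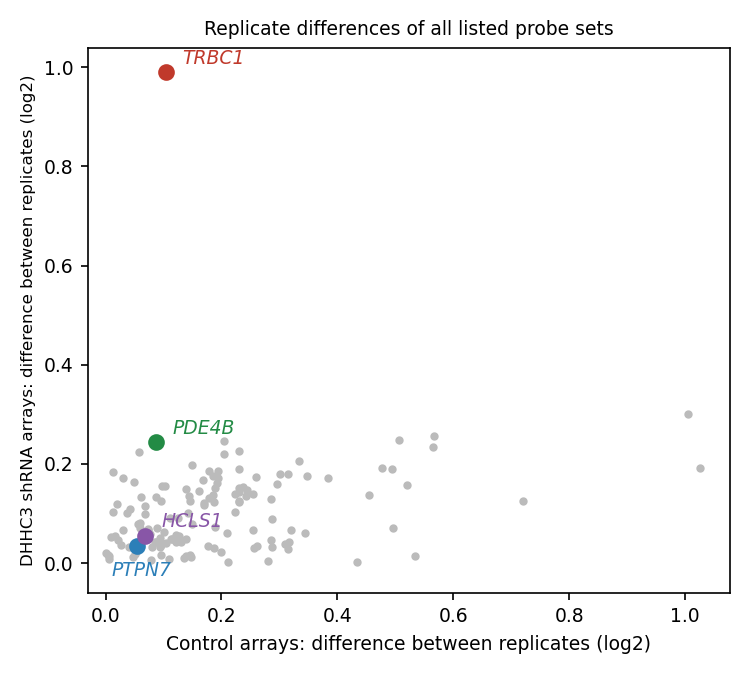
Absolute log2 difference between the 2 control arrays (horizontal axis) and between the 2 DHHC3 shRNA arrays (vertical axis) for each of the 137 probe sets, drawn in grey, with the 4 members in colour. TRBC1 stands alone at 0.99 on the vertical axis, PDE4B lies at 0.24, and PTPN7 and HCLS1 lie near the origin.

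PTPN7, the phosphatase, was the most evenly measured member. Probe set 204852_s_at read 288 and 277 units in control tumors, against 149 and 153 units in DHHC3 shRNA tumors. Both groups were tight and well apart. The means were 282 ± 7.51 and 151 ± 2.49 units (SD, n = 2 each), and PTPN7 was 1.87-fold lower, with a log2 fold change of -0.91 ± 0.08 (limma SE). The ratio between single arrays ran from 1.82 to 1.93, the narrowest range of the members. Its replicates differed by 0.05 (control) and 0.03 (DHHC3 shRNA) on the log2 scale. This probe set too carries the suffix _s_at.

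PDE4B, the phosphodiesterase, was lower by nearly the same factor but with more spread. Probe set 211302_s_at read 334 and 354 units in control tumors, against 168 and 199 units in DHHC3 shRNA tumors. The first DHHC3 shRNA array was the lower of its group, as for the other members. The means were 344 ± 14.6 and 183 ± 21.8 units (SD, n = 2 each), and the fold was 1.88, with a log2 fold change of -0.91 ± 0.11 (limma SE). The ratio between single arrays ran from 1.68 to 2.11. The difference between its DHHC3 shRNA arrays, 0.24 on the log2 scale, ranked 6 of 137, whereas its control arrays differed by 0.09. PDE4B is transcribed in several forms from different promoters, and which forms this probe set reads was not analysed here.

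HCLS1, the actin-binding adaptor, had the smallest difference of the members. Probe set 202957_at, the only member without the suffix _s_at, read 276 and 290 units in control tumors, against 168 and 174 units in DHHC3 shRNA tumors. The arrays within each group were close. The means were 283 ± 9.49 and 171 ± 4.64 units (SD, n = 2 each). HCLS1 was 1.66-fold lower, with a log2 fold change of -0.73 ± 0.08 (limma SE), leaving 60.4% of the control level. Its ratio between single arrays ran from 1.59 to 1.73. It ranked 34 of the 36 lower probe sets, and its nearest arrays, 1.59-fold apart, lay close to the 1.56-fold that is the smallest gap in the table.

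**Figure D3:**
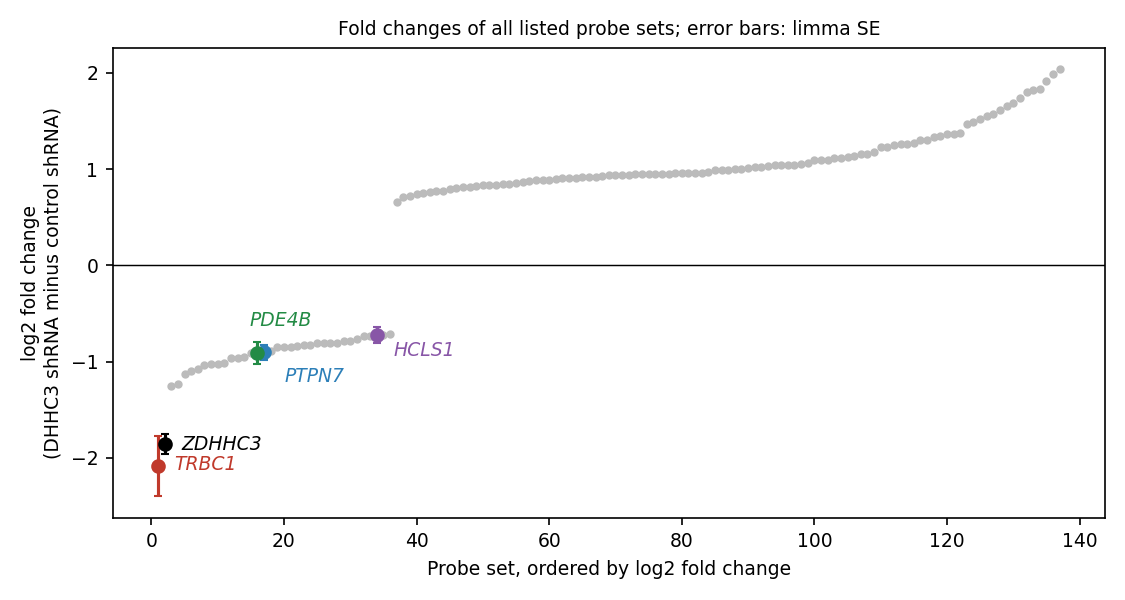
Log2 fold change, DHHC3 shRNA minus control shRNA, of the 137 probe sets in order of size, in grey, with the 4 members and ZDHHC3 in colour or black and error bars of 1 limma SE. TRBC1 and ZDHHC3 form the low end at -2.09 and -1.86, PDE4B and PTPN7 lie together at -0.91, and HCLS1 lies at -0.73 near the upper end of the lower probe sets.

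As deposited, the members ranked in the order TRBC1, PDE4B, PTPN7 and HCLS1 by size of the difference, and not every step exceeded the SE. The SEs rest on 2 arrays per group and on a spread shared over probe sets selected for separated groups. They may therefore understate the error. The log2 fold change of TRBC1 was below that of PDE4B by 1.17 and below that of PTPN7 by 1.18. The limma SE of TRBC1 was 0.32, while its own SD pooled over the groups was 0.50 on the log2 scale. PTPN7 and PDE4B lay 0.01 apart, far within their SEs of 0.08 and 0.11. HCLS1 lay 0.18 above both, about the sum of the SEs. Without the first DHHC3 shRNA array, TRBC1 lay closer to both, at -1.59 against -0.89 for PTPN7 and -0.79 for PDE4B. These differences between genes do not move when an array is multiplied by a constant, because each gene is compared with another on the same arrays. A test of them was not run, since the values are those that chose the genes.

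No member was among the 3 probe sets of most similar profile to another member. Likeness was measured over the 4 arrays as the root mean square difference of log2 values, each gene centred on its own mean, over the 101 probe sets with 1 symbol. All lower probe sets share the order of the groups, so this measure largely follows the size of the difference. Among PTPN7, PDE4B, HCLS1 and the probe sets nearest to them, it was at most 0.114. The median absolute difference between control replicates over the table, 0.15, is a different measure and sets no bound for it. The names and ranks are therefore described and not read as a relation between genes. The most similar probe sets to TRBC1 were those of ZDHHC3 (difference 0.32), of BCL2A1, an anti-apoptotic gene (0.55), and of STK17B, a kinase linked to apoptosis (0.56). Even the nearest one was far off, and TRBC1 had the largest split between DHHC3 shRNA arrays in the table. To PTPN7 the nearest were RPS21, a ribosomal protein (0.02), ATP5MJ, a subunit of ATP synthase (0.03), and GGCX, the vitamin K-dependent carboxylase (0.04).

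The nearest to PDE4B were SKIC8, of the RNA-degrading SKI complex (0.06), DENND1A, a regulator of Rab proteins (0.07), and a probe set of BNIP1, a protein of membrane fusion (0.07). To HCLS1 the nearest were another probe set of BNIP1 (0.03), LIPA, the lysosomal acid lipase (0.04), and GSTZ1, a glutathione transferase (0.05). The rank of one member among another's neighbours depended on which was taken as the centre. Around PDE4B, PTPN7 ranked 6 (difference 0.09) and HCLS1 ranked 16 (0.11). Around PTPN7, PDE4B ranked 22 with the same difference and HCLS1 ranked 27 (0.10). Around HCLS1, PTPN7 ranked 17 and PDE4B ranked 19. Around TRBC1, PDE4B ranked 10, PTPN7 ranked 15 and HCLS1 ranked 32. TRBC1 itself ranked 34 around PTPN7 and PDE4B and 41 around HCLS1.

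**Figure D4:**
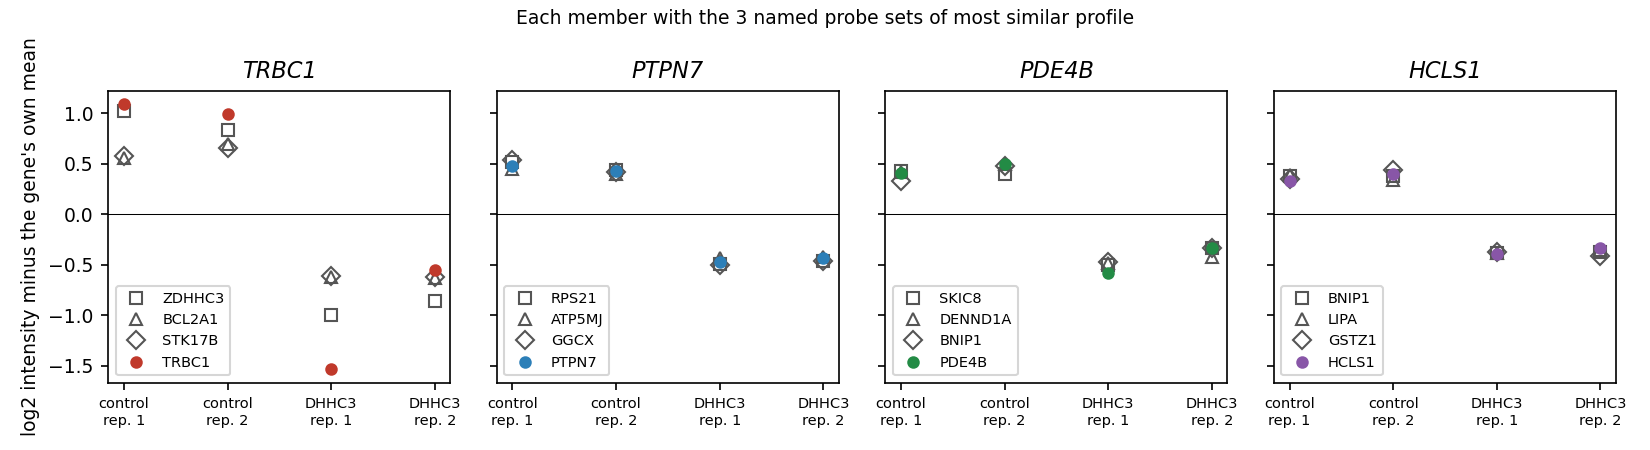
Log2 intensity minus the gene's own mean on each of the 4 arrays, for each member (filled circles) and its 3 nearest named probe sets (open symbols). The open symbols nearly cover PTPN7 and HCLS1, while TRBC1 lies below its neighbours on the first DHHC3 shRNA array at -1.54 and above all 3 of them on the second at -0.55.

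The lists of leukocyte genes added few further genes. Every gene list was matched only to the 101 probe sets with exactly 1 symbol. The 7 probe sets with several symbols and the 29 without one were not searched. Of 31 genes of leukocyte and hematopoietic signalling, 5 were in the table and all 5 were lower: PTPN7, HCLS1, PDE4B, BCL2A1 and STK17B. This list was drawn up with earlier results known and holds 3 of the members, so its count is no evidence of a direction. BCL2A1 read 1096 and 1207 units in control tumors, against 484 and 479 units in DHHC3 shRNA tumors, 2.39-fold lower (log2 fold change -1.26 ± 0.09, limma SE). STK17B read 461 and 487 units against 202 and 202 units, 2.35-fold lower (log2 fold change -1.23 ± 0.08, limma SE). In neither gene did the groups overlap, and both differences were larger than those of PTPN7, PDE4B and HCLS1.

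Markers that define leukocyte types were otherwise not found among the probe sets searched. Of 24 genes of the T cell receptor complex and of T cells, 1 was found there, TRBC1 itself. The partners of the beta chain, such as TRAC, CD3D, CD3E, CD3G and CD247, and the pan-leukocyte marker PTPRC were not found there. The label of the members as leukocyte-associated could thus not be checked against them. The searched part of the table held 0 of 11 NK cell markers and 0 of 10 B cell and plasma cell markers. It held 0 of 15 macrophage and monocyte markers, 0 of 10 neutrophil markers and 0 of 11 dendritic and mast cell markers. It also held 0 of 8 endothelial markers and 0 of 18 breast tumor cell and epithelial markers, the last list chosen after seeing the data. Of 11 fibroblast and pericyte markers it held 1, S100A4, a calcium-binding protein that tumor cells also make. S100A4 read 9351 and 8746 units in control tumors, against 4265 and 4313 units in DHHC3 shRNA tumors. Collagen genes outside this list went the other way, with log2 fold changes of 1.65 for COL6A3, 0.94 for COL4A1 and 0.71 for COL13A1. S100A4 alone thus gives no direction for stromal genes. A gene that was not found may have been unchanged, dim, left out by the rule that made the list, or in a probe set not searched. The level of such a gene was not analysed here.

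The immediate partners of the members were likewise few. Of 26 genes of cyclic AMP breakdown and signalling, PDE4B was the only 1 in the searched part of the table. Of 21 MAP kinases and their phosphatases, PTPN7 was the only 1, and of 19 genes of the actin cortex, HCLS1 was the only 1. Whether related enzymes such as PDE4D, or CTTN, which encodes cortactin, differed between these tumors was not analysed here.

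The array is annotated for human genes, while the labels name mouse as the organism and the tumors contain mouse cells. All 4 members have a mouse gene of the same symbol in the RefSeq annotation of GRCm38.p6, as do 82 of the 99 single genes of the table. Such a match of names does not show that mouse RNA binds these probes. Whether the signal of TRBC1, PTPN7, PDE4B or HCLS1 came from the cancer cells or from the host was not tested, and no value in the table separates them.

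**Figure D5:**
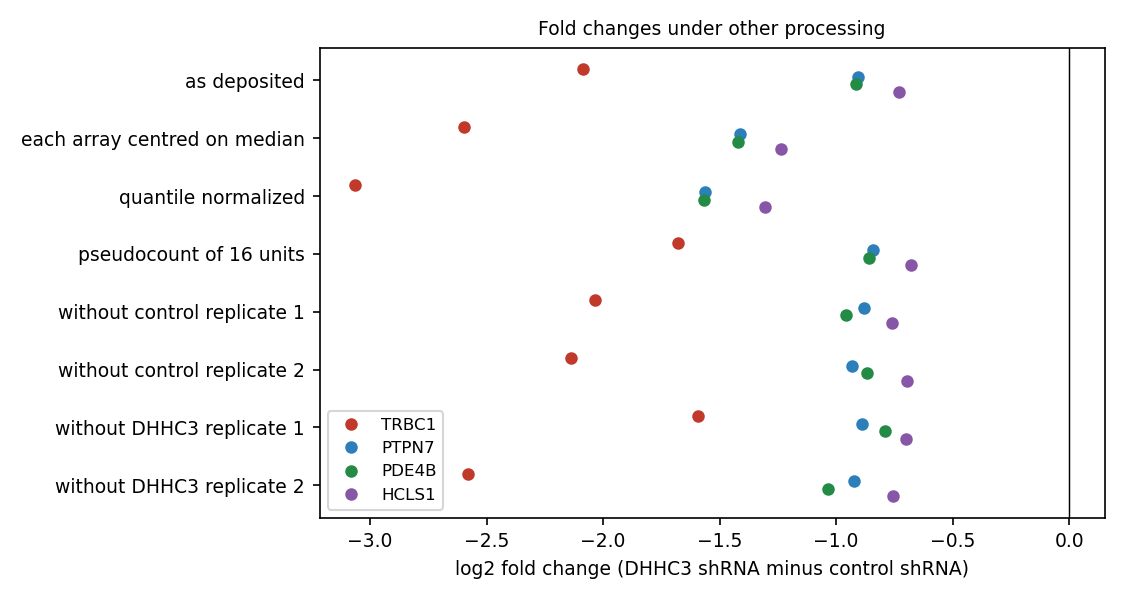
Log2 fold change, DHHC3 shRNA minus control shRNA, of the 4 members as deposited, with each array centred on its median, after quantile normalization over the table, with a pseudocount of 16 units, and without each array in turn. All values lie below 0, a direction that the selection of the list fixed in advance. TRBC1 ranges from -3.06 to -1.59, and both rescalings move every member to lower values.

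The size of these differences depended on the scaling between arrays, which is not given in the sources used here. Because most listed probe sets were higher, rescaling on the list by construction moves the members to lower values. With each array centred on its median over the list, TRBC1 was 6.04-fold and HCLS1 2.36-fold lower. After quantile normalization, PTPN7 was 2.95-fold, PDE4B 2.96-fold and TRBC1 8.36-fold lower. Without the second DHHC3 shRNA array, TRBC1 was 5.98-fold lower.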

How the data were processed

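The authors deposited linear intensity values per probe set for 4 single-colour arrays, hybridised with biotin-labelled cRNA per the labels' protocols. How values were summarised, background-corrected and scaled, and how the 137 probe sets were chosen, is not stated in the sources used here. Gene names came from the platform annotation: 1 symbol for 101 probe sets (99 genes), several for 7 and none for 29. Intensities were taken to log2 without a pseudocount or further normalization and fitted with limma 3.58.1 in R 4.3.3 (all 4 arrays, no covariates) for estimates and SEs, and p-values were adjusted over the 137 probe sets. The fit was tested on simulated data that were not selected and had a common spread. That test covers the estimates and not the SEs given here. Summaries used pandas 2.3.3 in Python 3.11.15 and figures matplotlib 3.10.9. The number of arrays limits the precision, and an intensity gives no read depth. The members and gene lists were chosen with earlier results of these data known. The genes named are the members, ZDHHC3, listed genes found in the table, and the 3 nearest profiles per member. The collagen genes given beside S100A4 were added after seeing the data. Alternatives were 2 rescalings, a pseudocount of 16 units, removal of the dimmest 25%, each array left out, and a replicate block. No probe, transcript or human genome sequence was used here.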

Additional observations from a re-analysis of the deposited data

How the results depend on the processing

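All 4 members and ZDHHC3 kept their direction under every alternative that gave a value, but the selection of the list fixed this in advance. Groups that do not overlap keep their order when an array is left out or a pseudocount is added. Both rescalings move lower probe sets further down. The kept direction is therefore no evidence of stability. Centring each array on its median (a shift of -0.509 for every gene) gave log2 fold changes of -2.60 for TRBC1, -1.41 for PTPN7, -1.42 for PDE4B, -1.24 for HCLS1 and -2.37 for ZDHHC3. After quantile normalization (median shift -0.544) they were -3.06, -1.56, -1.57, -1.30 and -2.24 in the same order. A pseudocount of 16 units gave -0.84 for PTPN7 and -0.68 for HCLS1. Leaving out each array in turn gave log2 fold changes from -2.58 to -1.59 for TRBC1, from -0.93 to -0.88 for PTPN7, from -1.03 to -0.79 for PDE4B and from -0.76 to -0.69 for HCLS1. TRBC1 was among the dimmest 25%, so that filter gave it no value; 32 probe sets were then lower, against 36. The labels do not say whether arrays of the same replicate number share anything else. The difference between replicates correlated with r = 0.0612 across the 137 probe sets. These were selected for separated groups, so this value cannot decide the question. With the replicate block, the log2 fold changes were by construction the same (-2.09, -0.91, -0.91, -0.73 and -1.86), with SEs of 0.32, 0.08, 0.08, 0.07 and 0.12. Signal over background is unknown and bears most on TRBC1.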
